A study of Mus musculus with 7 samples.

Results

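The genes described here carry carbon from glucose to pyruvate, bring pyruvate into the mitochondrion and oxidise it in the tricarboxylic acid (TCA) cycle. They are 44 named genes, chosen by symbol for their place in these pathways and not by their values, out of 22877 in the table of gene expression. They form 3 groups, with 17 genes of glycolysis, 10 of pyruvate transport and the pyruvate dehydrogenase complex, and 17 of the TCA cycle. The last group includes refilling and malic enzymes and the cytosolic Aco1, Idh1 and Mdh1. All 44 had a value.

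The study asked what the loss of mitofusin 1 (Mfn1), a GTPase of the outer mitochondrial membrane that drives mitochondrial fusion, does to oocytes in growing follicles. RNA was sequenced from oocytes freed from secondary follicles of 8-week-old C57BL/6J mice, with 5 oocytes pooled in each Smart-Seq2 library. Mfn1-/- oocytes came from Mfn1 fl/fl females carrying Cre recombinase under the Zp3 promoter, which is active in growing oocytes, so that the other cells of the follicle keep the gene, and WT oocytes came from littermates. The sample labels name 4 WT and 3 Mfn1-/- libraries, whereas the design text gives 3 for each genotype.

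Glycolysis splits glucose into pyruvate in the cytosol, the mitochondrial pyruvate carrier moves pyruvate across the inner membrane, and pyruvate dehydrogenase turns it into acetyl-CoA, which the TCA cycle oxidises to feed the respiratory chain. Mouse oocytes use glucose poorly on their own. They are known to rely on pyruvate, much of it made from glucose by the surrounding granulosa cells.

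For each gene the table holds 1 mean of normalized counts per genotype, called its level below. No value of a single library was used, so no SD or test can be given, the table does not show the depth of each library, and no difference below has a replicate check. Log2 ratios compare the Mfn1-/- with the WT level after adding 0.1 to both, which understates the change of low genes. The lowest level listed is 0.01. Levels fell with transcript length across genes (Spearman's rho = -0.309 over 6086 genes, which are not independent), and they are compared between genes as deposited, on that scale.

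Mfn1 itself was listed at 0.0577 in Mfn1-/- oocytes against 0.616 in WT, a log2 ratio of -2.18, in the direction of the labels. Oocyte markers were abundant as a group in both genotypes. All 14 were measured, 13 had a mean of at least 1, and their summed level was 2022 in Mfn1-/- and 1782 in WT oocytes. Sohlh1, among the 13, reached this mean only through its Mfn1-/- level, at 3.68 against 0.105 in WT oocytes. Zp3, a zona pellucida protein, was the most abundant at 708 and 609. Granulosa cell markers were low. Of the 14 of 16 analysed here, 10 had a mean under 0.1, among them Fshr, the FSH receptor, at 0.0160 and 0.0171, and Amh at 0.0349 and 0.0200. Their summed level was 8.32 in Mfn1-/- and 6.58 in WT oocytes, of which Serpine2, the most abundant, made up 5.91 and 4.79 and Inha 1.87 and 0.954. By number, 5 of the 14 were higher and 9 lower in Mfn1-/- oocytes. Theca and stroma markers (5 of 8 analysed) summed to 0.211 and 0.207, with Star at the top at 0.0845 and 0.105. Markers of blood, immune and endothelial cells (3 of 8 analysed) summed to 7.78 in Mfn1-/- and 0.939 in WT oocytes. Nearly all of this was the macrophage gene Cd68 at 7.58 and 0.672, and without it the sum was 0.197 and 0.267. None of the analysed markers stood at exactly the lowest level. The part of Cd68 and of the granulosa markers in the values below was not tested. In such pooled samples, fewer cells of a type and less RNA per cell cannot be told apart.

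The members spanned a wide range of levels. In both genotypes Ldhb was the highest and Hk1 the lowest. The mean of both genotypes was at least 10 for 6 members, from 1 to 10 for 23, from 0.1 to 1 for 10 and under 0.1 for 5, namely Hk1, Hk2, Ldha, Idh2 and Pcx. Ldhb ranked 34 among all genes of the table. Glycolysis was the largest group, at 0.396% of the summed levels of all genes in Mfn1-/- and 0.305% in WT oocytes. Ldhb accounted for 85.5% and 84.5% of that group. The other 16 glycolytic genes together summed to 82.2 and 61.4, a ratio of 1.34, above the TCA cycle group in Mfn1-/- but not in WT oocytes. The TCA cycle group summed to 76.7 in Mfn1-/- and 62.4 in WT oocytes (ratio 1.23). Pyruvate transport and dehydrogenase genes differed less, at 47.2 and 44.5 (ratio 1.06).

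**Figure D1:**
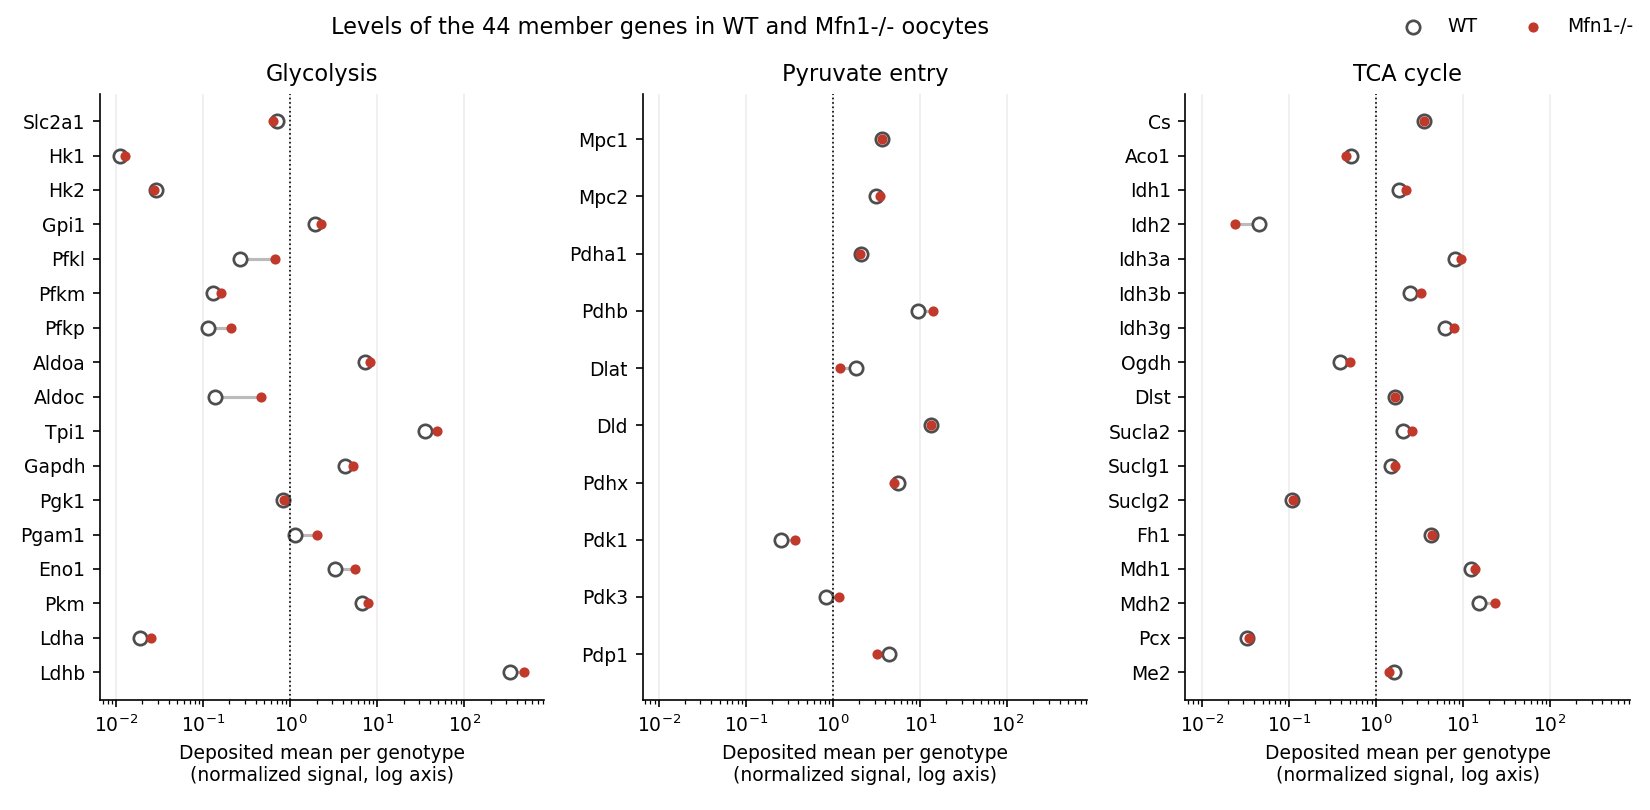
Level of each of the 44 members (deposited mean of normalized counts per genotype, log axis), with an open circle for WT and a filled circle for Mfn1-/- oocytes. The dotted line marks a level of 1. Most pairs nearly coincide, Ldhb stands apart at 483 and 335, and the widest gaps are at low levels, in Pfkl and Aldoc.

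Among all 6255 genes whose mean reached 1, the median log2 ratio was 0.16, and 65.9% were higher and 33.7% lower in Mfn1-/- oocytes, so a member with a ratio near 0.16 did not stand apart from the rest. Of the 44 members, 29 passed this minimum and 15 did not. The 29 had a median of 0.21. Of them 21 were higher, 7 lower and 1 equal, and 17 lay above and 12 below the median of all genes. The groups differed around this middle. In glycolysis 8 of the 17 genes passed the minimum, and all 8 were higher in Mfn1-/- oocytes and above the median of all genes (median 0.38, or 0.22 once the median of all genes was subtracted). In pyruvate transport and dehydrogenase 9 of 10 passed, with 3 higher, 5 lower and 1 equal, and 7 of the 9 below the median of all genes (median -0.01, or -0.17 after subtraction). Pdk3, among the 3 higher, reached the minimum only through its Mfn1-/- level. In the TCA cycle 12 of 17 passed, 10 higher and 2 lower, with 7 above and 5 below the median of all genes (median 0.19, or 0.027 after subtraction).

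Few members differed by much. Past 1.5-fold there were 3 higher, Pgam1, Eno1 and Mdh2, and 0 lower, whereas 15.9% of all genes with a mean of at least 1 were past 1.5-fold higher and 7.48% lower. Once the median of all genes was subtracted, 1 member was past 1.5-fold higher (Pgam1) and 2 lower (Dlat and Pdp1), against 10.2% and 10.9% of all genes. None of the 29 was past 2-fold either way, a size that 5.77% of all genes reached upwards and 3.15% downwards. With no minimum on the level, 2 of 44 members were past 2-fold higher, Pfkl and Aldoc, and 0 lower, against 4.87% and 2.75% of all genes. Each of these counts was near or below the background share and is not a result about the members as a whole.

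**Figure D2:**
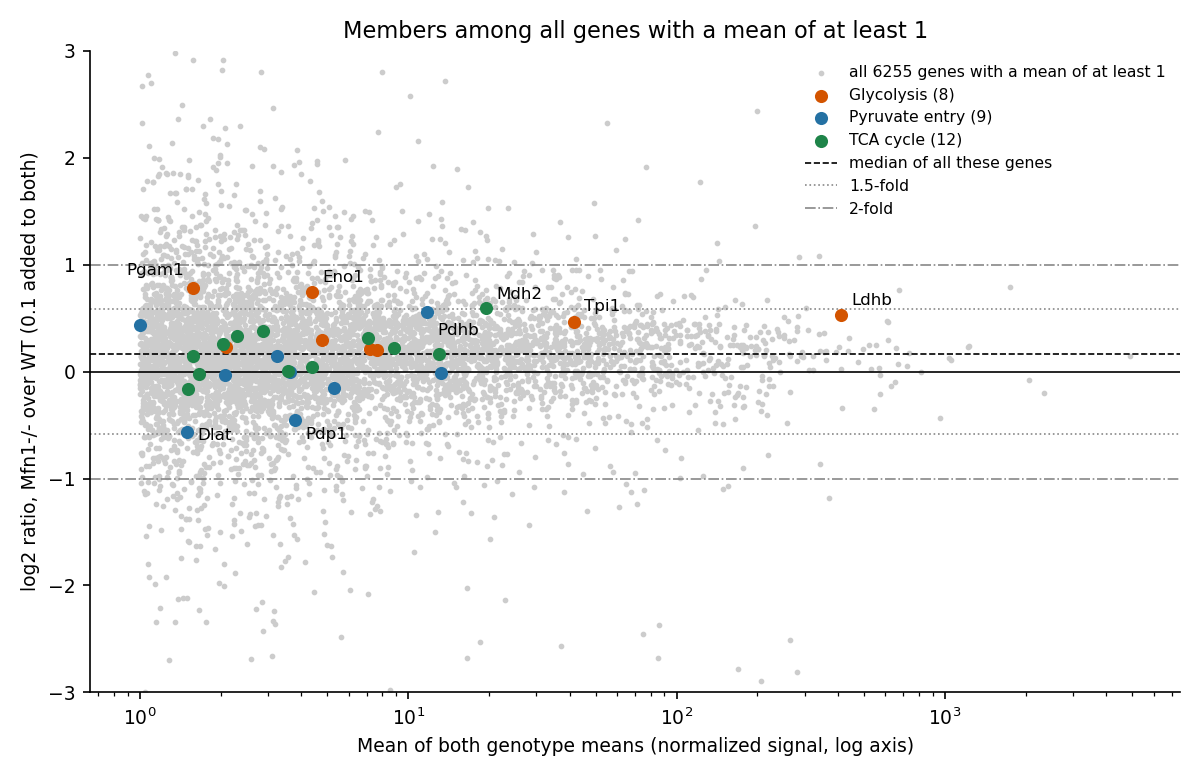
Log2 ratio of Mfn1-/- over WT oocytes (0.1 added to both levels) against the mean of both genotype levels (log axis). Grey points are all 6255 genes with a mean of at least 1, of which 26 lie outside the vertical axis, and coloured points are the 29 members that passed this minimum. The 8 glycolytic genes lie above the dashed median of 0.16, and 7 of the 9 pyruvate genes lie below it.

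Regulatory sequence is shown for the genes at the extremes of this account: the lactate dehydrogenase genes Ldhb and Ldha, which are the most abundant member and one of the 5 scarcest, and Pgam1, Eno1 and Mdh2, which were past 1.5-fold. Each is the 150 bases before the gene's RefSeq start on GRCm38.p6, 5′ to 3′ on the gene's own strand. The windows are chr6:142507958-142508107 on the minus strand for Ldhb and, on the plus strand, chr7:46845654-46845803 for Ldha, chr19:41911721-41911870 for Pgam1, chr4:150236558-150236707 for Eno1 and chr5:135778499-135778648 for Mdh2. Of the 44 members 41 matched the RefSeq promoter table, without Pdp1, Idh3a and Me2. Capitals mark 3 motifs searched on both strands. The first is ACGTG, a form of the core of the hypoxia response element, which as its reverse complement reads CACGT. The other form of this core, GCGTG, was not searched. The cAMP response element, TGACGTCA, reads the same on both strands. The GC box, with the letters GGGCGG, appears on the opposite strand as CCGCCC. The letters CACGTG hold ACGTG on both strands, overlapping, and count as a match on each.
Ldhb: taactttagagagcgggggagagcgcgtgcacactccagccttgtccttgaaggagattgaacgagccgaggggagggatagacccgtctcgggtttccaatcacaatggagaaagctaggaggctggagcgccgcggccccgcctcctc
Ldha: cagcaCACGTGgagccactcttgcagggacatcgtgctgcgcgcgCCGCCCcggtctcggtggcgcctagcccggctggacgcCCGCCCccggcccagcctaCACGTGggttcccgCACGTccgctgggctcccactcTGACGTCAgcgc
Pgam1: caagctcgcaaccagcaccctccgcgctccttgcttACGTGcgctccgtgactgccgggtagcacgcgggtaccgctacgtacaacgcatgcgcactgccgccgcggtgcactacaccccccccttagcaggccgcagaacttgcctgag
Eno1: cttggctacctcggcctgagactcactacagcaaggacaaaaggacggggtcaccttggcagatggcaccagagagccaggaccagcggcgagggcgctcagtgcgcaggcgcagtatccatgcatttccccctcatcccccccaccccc
Mdh2: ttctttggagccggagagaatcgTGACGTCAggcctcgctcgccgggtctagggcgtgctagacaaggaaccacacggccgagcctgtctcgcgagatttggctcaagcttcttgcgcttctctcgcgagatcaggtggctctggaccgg

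The window of Ldha held 5 matches to ACGTG, 1 to TGACGTCA and 2 to the GC box. Those of Ldhb and Eno1 held none of the 3 motifs as searched. GCGTG, left unmarked, stands in the windows of Ldhb and Mdh2, and its reverse complement CACGC in that of Pgam1. Pgam1 had 1 match to ACGTG and Mdh2 1 to TGACGTCA. ACGTG occurred in 9 of the 41 members' windows (22.0%), namely Slc2a1, Hk2, Pfkm, Pgk1, Pgam1, Ldha, Pdk3, Ogdh and Pcx, and in 11.2% of all 32851 windows. Of these 9, Pgam1 and Pdk3 had a mean level of at least 1. TGACGTCA was found in 3 (7.32%) against 1.36% of all windows, in Ldha, Ogdh and Mdh2. The GC box was found in 22 (53.7%) against 28.6% of all windows. Each member entered with a single window, whereas a gene with several starts entered the 32851 with each of them. The shares are thus not on the same basis, and their difference was not tested. A match describes the letters of the window and is not a site, and its absence says only that these letters are not in this window.

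Glucose enters cells through facilitated transporters and is trapped by phosphorylation. Slc2a1, which encodes the glucose transporter GLUT1, had a level of 0.632 in Mfn1-/- and 0.700 in WT oocytes. The hexokinases, which add the phosphate, were close to the lowest level of the table, with Hk1 at 0.0126 and 0.0111 and Hk2 at 0.0270 and 0.0284. Adpgk, an ADP-dependent glucokinase, made up 92.7% and 92.8% of the summed hexokinase step, at 0.953 and 0.935, though its exons overlap the more abundant Bbs4 on the opposite strand, at 5.43 and 4.83, which makes this share uncertain. Thus the genes of glucose entry and phosphorylation were low in both genotypes. Gpi1, which turns glucose-6-phosphate into fructose-6-phosphate, was higher, at 2.27 and 1.92 (log2 ratio 0.23). Its level is uncertain, since Gpi1 has a near-identical copy, given below.

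Phosphofructokinase commits the sugar to glycolysis. Pfkl, the liver-type subunit, had a level of 0.674 in Mfn1-/- and 0.265 in WT oocytes (log2 ratio 1.08). The platelet-type Pfkp was at 0.208 and 0.113 (0.53), and the muscle-type Pfkm at 0.160 and 0.131 (0.17). All 3 subunits were thus under 1 in both genotypes, and their sum was 1.04 in Mfn1-/- and 0.509 in WT oocytes. Aldolase, which splits the sugar, was mostly Aldoa, at 8.23 and 7.13 (log2 ratio 0.20). Aldoc, the brain form, had the largest log2 ratio of the 44 members, 1.26, from a low level of 0.462 in Mfn1-/- and 0.135 in WT oocytes. Since Aldoa outweighed it, the sum of both was 8.69 and 7.27. Pfkl lies on chr10:77986947-78010083 and Aldoc on chr11:78322968-78327781 of GRCm38 (GENCODE M21), and neither shares exon sequence with another gene.

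The lower part of the pathway, where ATP and pyruvate are made, held both abundant and scarce enzymes. Tpi1, which interconverts the triose phosphates, was the second most abundant member, copies left aside, at 48.1 in Mfn1-/- and 34.8 in WT oocytes (log2 ratio 0.47). Gapdh, the dehydrogenase of the pathway, was at 5.26 and 4.26 (0.30). The first ATP-making enzyme, Pgk1, was at 0.849 and 0.827. Next in the pathway, Pgam1 moves the phosphate along the 3-carbon acid. Its level was 2.02 in Mfn1-/- and 1.13 in WT oocytes (log2 ratio 0.79), the largest ratio of the 29 members with a mean of at least 1. By contrast Bpgm, the related bisphosphoglycerate mutase, was far more abundant and alike in both genotypes, at 85.6 and 83.9. Pkm, the pyruvate kinase that yields ATP and pyruvate, was at 7.73 and 6.68 (0.21).

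At enolase, genes of 1 enzyme lay on opposite sides, with Eno1 just within 1.5-fold (0.58) once the median of all genes was subtracted. Eno1, alpha-enolase, had a level of 5.51 in Mfn1-/- and 3.25 in WT oocytes (log2 ratio 0.74). Its retrotransposed relative Eno1b went the other way, from 16.7 in WT to 9.49 in Mfn1-/- oocytes (log2 ratio -0.81). In WT oocytes Eno1b made up 83.7% of the pair and in Mfn1-/- oocytes 63.3%, so the sum of both was 15.0 in Mfn1-/- and 20.0 in WT oocytes. Their longest shared stretch was 99.5% identical over 1736 bases, so how reads were divided between them is uncertain.

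Lactate dehydrogenase interconverts lactate and pyruvate. It rested on Ldhb, the heart-type subunit, with a level of 483 in Mfn1-/- and 335 in WT oocytes (log2 ratio 0.53). Ldha, the muscle-type subunit, was near the lowest level of the table at 0.0249 and 0.0190. The testis-type Ldhc was at 2.52 and 2.85. As listed, the gap between Ldhb and Ldha was the widest between genes of 1 enzyme among those compared here. Its size is uncertain, since Ldha lay near the lowest level and shares stretches with 5 other genes. Ldhb lies on chr6:142490249-142507957 and Ldha on chr7:46841475-46855627 of GRCm38.

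Many glycolytic genes have processed pseudogenes, copies of the spliced transcript inserted elsewhere in the genome, and the table lists these as genes of their own. A copy was taken as a gene with at least 50% of a transcript matching a member at 95% identity or more in stretches of at least 75 bases, a rule set after values were seen. By this rule 10 members had copies in the table, 53 in all, and in 9 of the 10 the copies summed to more than the member itself. Tpi1 was the exception. The values of these members are therefore uncertain, since the same reads may fit either place.

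Gm5514, the copy of Ldhb, had a level of 851 in Mfn1-/- and 502 in WT oocytes, above Ldhb itself. With it, Ldhb summed to 1334 and 837, a ratio of 1.59. Pgam1-ps2, the copy of Pgam1, was at 7.72 and 3.84. Member and copy leaned the same way here, and the Pgam1 sum of 9.74 and 4.97 had a ratio of 1.96. The 3 copies of Eno1, with Eno1b among them, were led by Gm4735 at 53.7 in Mfn1-/- and 27.7 in WT oocytes. All 4 together summed to 69.0 and 47.7 (ratio 1.45), so the lower enolase sum of the coding genes was not seen once the pseudogenes were added. Gapdh had 40 copies in the table, and the most abundant, Gm7336 at 40.0 and 30.1, exceeded the gene itself. The sum with copies was 62.1 in Mfn1-/- and 49.6 in WT oocytes for Gapdh. For Pgk1 it was 18.7 and 16.0, and for Pkm 27.0 and 20.8. For Gpi1, whose copy Gm1840 was at 15.8 and 13.7, it was 18.1 and 15.6. Adding copies therefore lifted Pgk1 from one of the scarcer glycolytic genes to between Pgam1 and Gapdh with theirs. In pyruvate transport, Mpc1 had the copy Mpc1-ps at 64.1 and 51.9, against 3.64 in both genotypes for Mpc1. With copies, Eno1, Mpc1 (68.2 and 55.9) and Gapdh were all above Tpi1, at 57.5 and 39.8. Suclg2, a subunit of succinyl-CoA synthetase in the TCA cycle, had the copy Gm15163 at 6.02 and 5.62, against 0.111 and 0.110 for the gene. In all 10 members the sum with copies was higher in Mfn1-/- oocytes, as were 65.9% of all genes, and in 2 of them, Pgam1 and Ldhb, it was past 1.5-fold, near the 15.9% of all genes. The sum for Suclg2 had a log2 ratio of 0.096, below the median of all genes.

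**Figure D3:**
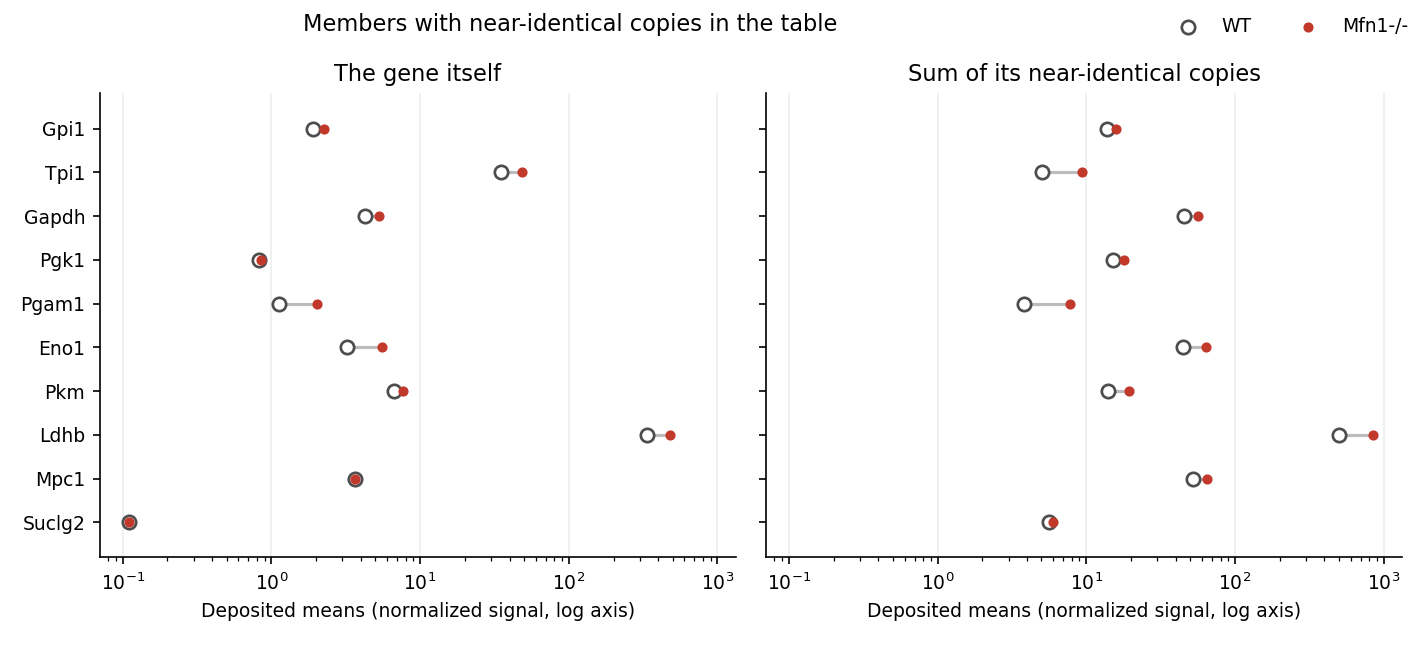
Levels (normalized counts, log axis) of the 10 members that have near-identical copies in the table, with the gene itself on the left and the sum of its copies on the right. Open circles are WT and filled circles Mfn1-/- oocytes. In every member but Tpi1 the copies sum to more than the gene, and for Mpc1, equal in both genotypes at 3.64, they sum to 64.5 and 52.2.

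Pyruvate crosses the inner mitochondrial membrane through a carrier made of MPC1 and MPC2. Mpc1 had the same level, 3.64, in both genotypes, and Mpc2 was at 3.42 in Mfn1-/- and 3.09 in WT oocytes (log2 ratio 0.14). As listed, the subunits were at similar levels, but with its copies Mpc1 was far above Mpc2, so their order is uncertain.

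The subunits of the pyruvate dehydrogenase complex did not move together. Pdhb, the beta subunit of the E1 decarboxylase, was at 14.0 in Mfn1-/- and 9.51 in WT oocytes (log2 ratio 0.55). Its partner Pdha1, the alpha subunit, was at 2.05 and 2.10 (-0.03). Dlat, the E2 core that hands the acetyl group to coenzyme A, was lower in Mfn1-/- oocytes, at 1.19 against 1.81 (log2 ratio -0.57). This was the lowest ratio of the 29 members, within 1.5-fold only because 0.1 was added to both levels, and it passed 1.5-fold after the median of all genes was subtracted. Dld, the E3 subunit that the complex shares with 2-oxoglutarate dehydrogenase, was at 13.2 and 13.3. Pdhx, which tethers E3 to the core, was at 5.01 and 5.57 (-0.15). As a result the ratio of Pdhb to Dlat levels was 11.8 in Mfn1-/- and 5.25 in WT oocytes. Pdhb shares short stretches with 6 other genes, while Dlat, on chr9:50634633-50659780 of GRCm38, shares none.

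Kinases switch the complex off by phosphorylating E1, and phosphatases switch it on again. On the kinase side, Pdk3 was at 1.17 in Mfn1-/- and 0.837 in WT oocytes (log2 ratio 0.44), and Pdk1 at 0.364 and 0.252 (0.40). Pdp1, the main catalytic phosphatase subunit here, was at 3.18 and 4.40 (-0.46) and is on chr4:11958184-11966452. The summed kinase level, with Pdk2, was 1.65 and 1.17, and the summed phosphatase level, with Pdp2 and the regulatory subunit Pdpr, was 3.30 and 4.63. Transcripts of the inhibiting and activating enzymes thus differed in opposite directions, with ratios of 1.40 and 0.712, though the members Pdk1, Pdk3 and Pdp1 were each within 1.5-fold. Once the median of all genes was subtracted, Pdp1 passed 1.5-fold lower (-0.62), and the kinases moved closer to 0, Pdk3 to 0.27 and Pdk1 to 0.23.

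In the TCA cycle, citrate synthase (Cs), which joins acetyl-CoA to oxaloacetate, was alike in both genotypes at 3.56 and 3.55. Aco1, the cytosolic aconitase that doubles as iron regulatory protein, was at 0.459 in Mfn1-/- and 0.518 in WT oocytes. The NAD-dependent isocitrate dehydrogenase, which catalyses a regulated step of the cycle, has 3 kinds of subunit. Idh3a was at 9.53 and 8.18 (log2 ratio 0.22), Idh3b at 3.26 and 2.48 (0.38) and Idh3g at 7.87 and 6.31 (0.31). All 3 lay above the median of all genes, by a small margin. The NADP-dependent forms were unequal. Cytosolic Idh1 was at 2.23 and 1.85 (0.26), whereas mitochondrial Idh2 was near the lowest level at 0.0242 in Mfn1-/- and 0.0456 in WT oocytes.

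Ogdh, the E1 subunit of 2-oxoglutarate dehydrogenase, was at 0.510 and 0.391 (log2 ratio 0.31), and Dlst, its E2 subunit, at 1.65 and 1.68 (-0.02). Succinyl-CoA synthetase pairs Suclg1 with a subunit that makes either ATP or GTP. Sucla2, the ATP-specific subunit, was at 2.59 and 2.03 (0.34), against 0.111 and 0.110 for the GTP-specific Suclg2. With its copy Suclg2 was at 6.13 and 5.73, above Sucla2, so their order is uncertain. Suclg1 was at 1.66 and 1.49 (0.15). Fumarase (Fh1) was alike in the genotypes at 4.44 and 4.32 (0.04).

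Within the TCA cycle group, which leaves out succinate dehydrogenase, the malate dehydrogenases were the most abundant members. Mdh2, the mitochondrial enzyme that closes the cycle, had a level of 23.5 in Mfn1-/- and 15.5 in WT oocytes (log2 ratio 0.60), past 1.5-fold, though not once the median of all genes was subtracted (0.43). It lies on chr5:135778480-135790398 of GRCm38, and no near-identical copy was found. Mdh1, the cytosolic enzyme, was at 13.8 and 12.3 (0.17). The ratio of Mdh2 to Mdh1 was thus 1.70 in Mfn1-/- and 1.26 in WT oocytes. Of the enzymes that feed or drain the cycle, pyruvate carboxylase (Pcx) was near the lowest level at 0.0350 and 0.0330, and the malic enzyme Me2 was at 1.42 and 1.60 (-0.16).

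Reading along the pathway, the genes were summed by enzyme step, in 28 steps drawn up after values were seen. Isozymes of a step were added. At some steps, such as succinate dehydrogenase, different subunits were added too, whereas those of pyruvate dehydrogenase were kept as separate steps. The sum was higher in Mfn1-/- oocytes at 22 steps and lower at 6, and 16 steps lay above and 12 below the median log2 ratio of all genes. The E1 alpha step was among the higher ones only through Pdha2, the testis form, at 1.27 and 0.661. Of the 11 glycolytic steps, 10 were higher and enolase was lower, beside 65.9% of all genes higher. Above the median of all genes there were 8 of the 11, without enolase, hexokinase and phosphoglycerate kinase. Copies other than Eno1b were left out of the steps. With all its copies, Eno1 was at 69.0 in Mfn1-/- and 47.7 in WT oocytes (log2 ratio 0.53). Pgk1 with its copies had a log2 ratio of 0.22, and both lay above the median of all genes. These counts of steps therefore hold only with the copies left out. The lowest glycolytic sums, with the copies left out, were at phosphoglycerate kinase, hexokinase and phosphofructokinase. The highest was at lactate dehydrogenase, at 485.6 in Mfn1-/- and 337.9 in WT oocytes. With its copies, Pgk1 was at 18.7 in Mfn1-/- and 16.0 in WT oocytes and was not among the lowest. Within the cycle, the largest sum was at succinate dehydrogenase, at 56.0 and 48.4. It adds 4 subunit genes and was led by Sdhd at 42.0 and 37.3, so it is not the level of a single enzyme chain.

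**Figure D4:**
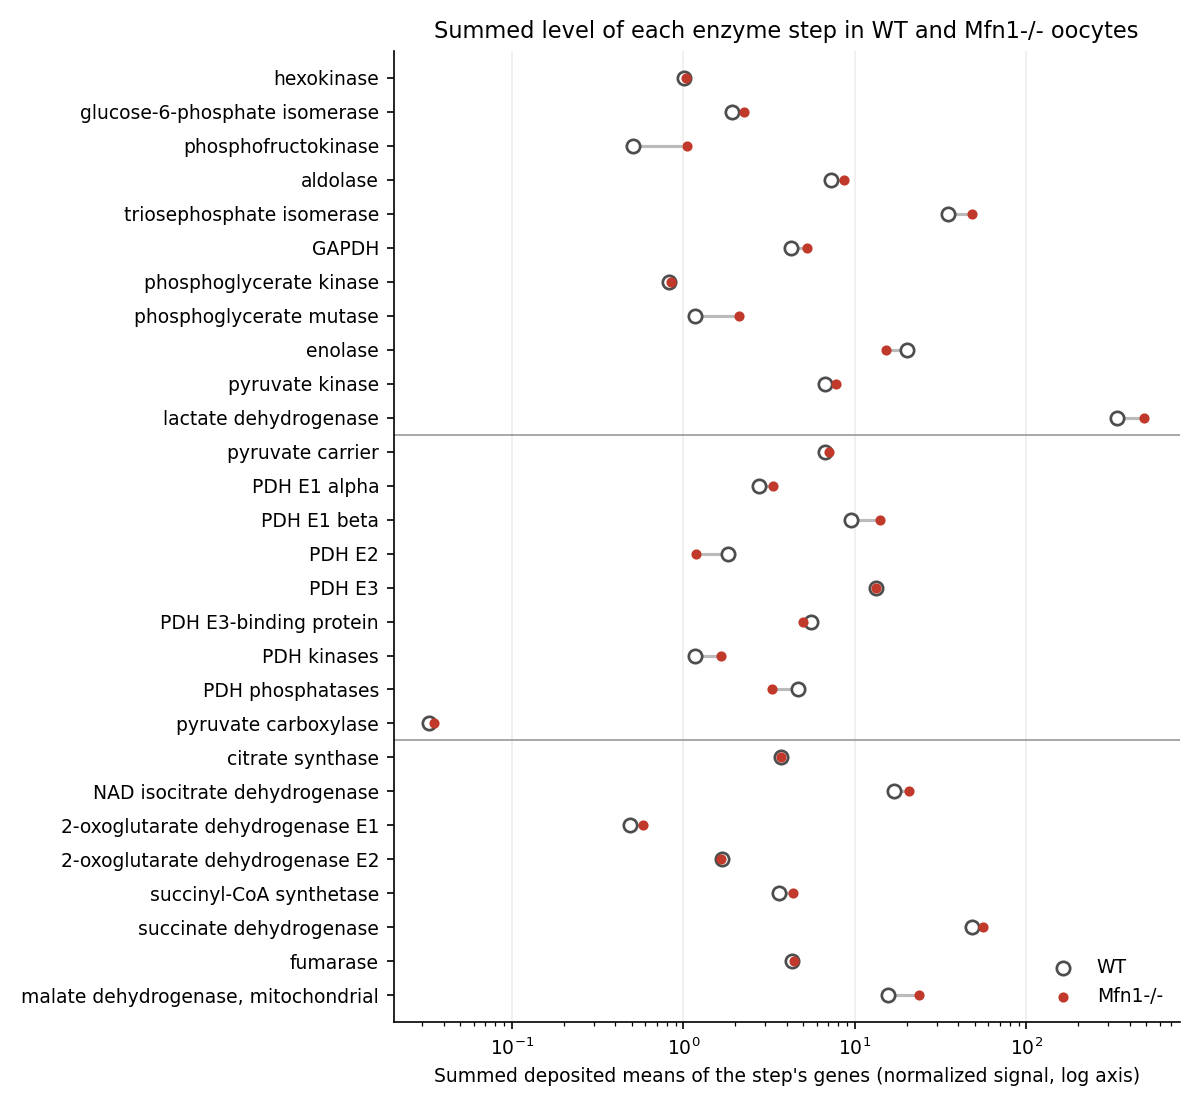
Summed level (normalized counts, log axis) of the genes of each of 28 enzyme steps, with glycolysis at the top, pyruvate entry in the middle and the TCA cycle at the bottom. Near-identical copies other than Eno1b are left out of the sums. Open circles are WT and filled circles Mfn1-/- oocytes. Lactate dehydrogenase stands far to the right at 485.6 and 337.9, and enolase, the E2 subunit of pyruvate dehydrogenase (PDH), its E3 subunit and binding protein, its phosphatases and the E2 subunit of 2-oxoglutarate dehydrogenase are the 6 steps with a lower sum in Mfn1-/- oocytes.

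A wider list of 97 genes of these pathways, with transporters, isozymes, bypass and pentose phosphate enzymes and regulators, gave 82 measured genes, of which 30 had a mean of at least 1. Of the 30, 18 were higher and 12 lower in Mfn1-/- oocytes, with a median log2 ratio of 0.18, close to that of all genes. Past 1.5-fold there were 4 higher and 2 lower, and past 2-fold 0 higher and 1 lower. These counts were near or below the shares of all genes, 15.9% and 7.48% past 1.5-fold and 5.77% and 3.15% past 2-fold. That gene was Got1, the cytosolic aspartate aminotransferase of the malate-aspartate shuttle, at 0.498 in Mfn1-/- and 2.50 in WT oocytes (log2 ratio -2.12). Got1 lies on chr19:43499752-43524605 of GRCm38 and had no near-identical copy. It reached the mean of 1 only through its WT level. Its mitochondrial partner Got2 was at 1.20 and 1.41, which is uncertain, since its copies sum to 2.59 and 2.68 and the overlapping Gm45760 on the opposite strand is at 3.89 and 3.51. In the same shuttle, the malate dehydrogenases Mdh1 and Mdh2 were not lower in Mfn1-/- oocytes, as given above.

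Reads from overlapping genes on opposite strands cannot be told apart in libraries that do not mark strand, as here. Among the members this concerns 11, with Slc2a1, Gpi1, Aldoa, Gapdh, Mpc1, Pdha1 and Mdh1 each above its overlapping gene. Another is Tpi1, whose exons overlap Spsb2 at 0.914 in Mfn1-/- and 0.0636 in WT oocytes. It also concerns Idh3b, which overlaps the more abundant Nop56 at 34.5 and 30.1. Pfkp overlaps Pitrm1 at 1.41 and 0.857, and Pfkm overlaps Senp1 at 1.06 and 1.14, both above the member's own level, so the values of these subunits are uncertain. On its own strand Pfkm also overlaps Gm26513, at 0.352 and 0.199.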

How the data were processed

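The signal analysed here is the authors' deposited mean of normalized counts per gene for each genotype, with 3 significant digits and a lowest value of 0.01. The third deposited signal, a total, matched, within 1% in 100% of genes, 4 libraries at the WT and 3 at the Mfn1-/- mean. Reads were trimmed with Cutadapt, filtered with the FASTX-Toolkit, aligned with STAR to GRCm38/mm10 and compared with DESeq2 by the authors, whose processing notes also name FastQC and DESeq. Tool versions, the counting annotation, the normalization and the strand setting are not given in the sources used here. Another 4 columns hold the authors' own comparison (p-value, FDR, ratio and fold change) and were not used. There were 0 unused columns of per-sample values.

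Genotypes came from the sample titles. Log2 ratios of Mfn1-/- over WT were computed with a pseudocount of 0.1. Genes with a mean of the 2 genotype means of at least 1 were counted past 2-fold and 1.5-fold, with and without subtracting the median log2 ratio of these genes. A test across libraries was planned for library values and could not be run on 1 mean per genotype. The members and lists were chosen with earlier results of these data known. All members are given, with Mfn1, other pathway genes past 2-fold with a mean of at least 1, isozymes of members past 2-fold, and the most abundant marker of each list. Other genes, the copies and the enzyme steps were named after their values were seen. Some genes of the wider lists are not reported here by name, and the enzyme steps leave them out.

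Positions, transcripts and exon overlaps came from GENCODE M21 (blastn 2.17.0, bedtools 2.31.1), and promoter windows from RefSeq (GRCm38.p6). Of the 44 members, 32 shared no stretch of 75 bases at 95% identity with another gene and 12 did. Python 3.11.15, numpy 2.4.6, pandas 2.3.3 and matplotlib 3.10.9 were used, and the ratio and call code was tested on simulated data. Alternatives were pseudocounts of 0.01 and 1, no minimum or a minimum of 10, subtraction of the median, scaling to the same sum, another denominator for shares and groups without their most abundant gene. Those added after the data were seen were no pseudocount, addition of copies, and levels divided by transcript length.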

Additional observations from a re-analysis of the deposited data

How the results depend on the processing

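No paired analysis was possible because the table holds 1 mean per genotype, and for the same reason no library could be left out. With no replicate spread, a median was taken to move when it changed by over 0.1 on the log2 scale, and a count or share when it changed by over 1.5-fold. The count of members past 2-fold was 0 both ways under every alternative but 1: with no minimum on the level, 2 were higher. With no minimum, 5 were past 1.5-fold higher and the glycolysis median was 0.23. With a minimum of 10, 1 was past 1.5-fold higher, and the medians of glycolysis, pyruvate genes and the TCA cycle were 0.50, 0.27 and 0.38, each over a few genes. With the median of all genes subtracted, 1 was higher and 2 lower past 1.5-fold, and the medians were 0.22, -0.17 and 0.027. With both genotypes scaled to the same sum, 1 was past 1.5-fold lower, and the medians were 0.25, -0.14 and 0.061. A pseudocount of 0.01 or none gave 1 past 1.5-fold lower, and a pseudocount of 1 left 1 higher. Shares of all genes past 1.5-fold were computed only in the main setting and with the median subtracted. The 1.5-fold counts under the other settings have no such share beside them and are not a result about the members. Without Ldhb, glycolysis took 0.0576% of the summed levels in Mfn1-/- and 0.0472% in WT oocytes.

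With copies added, a choice made after the data were seen, Eno1b reversed from -0.81 to 0.53 because its sum then holds Eno1 and Gm4735, and Eno1 was within 1.5-fold at 0.53. Single genes also came within 1.5-fold elsewhere: Pgam1 at 0.50 and Mdh2 at 0.57 with a pseudocount of 1, Eno1 at 0.58 and Mdh2 at 0.43 with the median subtracted, and Mdh2 at 0.47 with the same sum. Got1, which reached the minimum through WT alone, stayed past 2-fold lower wherever it was computed. Of 15 pairs of genes compared in level, 15 kept their order after division by transcript length, which was planned as the main scale and became the alternative because levels already fall with length. The causes of these shifts were not tested. The table shows neither the depth nor the values of each library, so no precision is given for levels under 1, such as those of Pfkl and Aldoc.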

Other observations

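Other genes near these pathways, named after their values were seen, had the following levels. G6pc3, a glucose-6-phosphatase catalytic subunit, was at 5.10 in Mfn1-/- and 2.63 in WT oocytes (log2 ratio 0.93). Slc25a1, the mitochondrial citrate carrier, was at 18.4 and 11.1 (0.72), and Sdha, the flavoprotein subunit of succinate dehydrogenase, at 3.55 and 2.19 (0.67). The genes of lipoate attachment, on which the E2 subunits depend, were unequal: Lipt2 was at 47.5 and 25.7 (0.88), Lipt1 at 30.7 and 37.2, and Lias, the lipoate synthase, at 0.713 and 0.436. Of the 10 pentose phosphate genes 6 had a mean under 1, while G6pdx, the first enzyme, was at 20.7 and 21.7 and Taldo1, transaldolase, at 12.5 and 9.74. Basigin (Bsg), the chaperone of the lactate and pyruvate transporters, was at 22.4 and 16.3 (0.46). Among the oocyte markers, Sohlh1, a transcription factor of early follicles, was at 3.68 in Mfn1-/- and 0.105 in WT oocytes (4.20).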
